A study of Mus musculus with 6 samples.

Results

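The Hox genes of the mouse encode homeodomain transcription factors that give cells along the body axis their position. Here they were described in the cervical spinal cord, as the 39 protein-coding genes whose symbol is Hoxa, Hoxb, Hoxc or Hoxd followed by a number, a rule that uses no expression value, out of 54532 genes in the deposited tables. All 39 were found by symbol. Total RNA of the cord had been sequenced in 6 C57BL/6 mice, 1 library per mouse. The 3 ACD mice had allergic contact dermatitis, a T-cell mediated skin inflammation, induced with squaric acid dibutylester (SADBE), a contact allergen. They had 20 µl of 1% SADBE in acetone put on the shaved abdomen on each of 3 days, and 5 days later the same dose on the shaved nape on each of 3 days. The 3 control mice had acetone alone on the nape, and the labels leave unclear whether they too had been sensitised with SADBE on the abdomen. The labels name neither age nor sex, nor the segments at which the cords were cut.

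The 39 genes lie in 4 clusters on 4 chromosomes, and a paralogue number from 1 to 13 gives a gene's place in its cluster. Genes with low numbers are switched on first and reach furthest forward, into the hindbrain, and genes with high numbers are confined to more posterior levels, a rule called colinearity. In the spinal cord Hox proteins, bound to DNA with Pbx and Meis cofactors, set which motor columns and pools form: Hoxa5 and Hoxc5 act in phrenic motor neurons, Hoxc6 in motor neurons of the forelimb, Hoxc8 in the caudal part of that brachial region, Hoxc9 in the thoracic cord and the Hox10 genes in the lumbar cord. Levels are in FPKM, which divides a gene's fragments by its exon length and by a library total, so levels of different genes can be compared per length. In GRCm38 coordinates the Hoxa cluster from Hoxa2 to Hoxa13 spans chr6:52162417-52260880 on the minus strand. The others are on the plus strand, Hoxb at chr11:96194316-96368256, Hoxc at chr15:102921103-103036852 and Hoxd at chr2:74668310-74765142.

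The library total that scales the FPKM, recovered from the steps between low values, was 17346315 to 20245577 in ACD and 16916600 to 18583992 in control libraries. Reads recovered over all genes came to 18525474, 21487894 and 19029723 in ACD libraries and 16517302, 18915346 and 17807137 in control libraries. They exceeded the scaling total in every library but control 1, so that total is not a plain count of reads. The reason was not tested. Forebrain genes that a cervical dissection should lack, Otx1 and Otx2, were at 0 in all 6 libraries. Over the whole table limma called 927 of 21369 genes at an adjusted p of 0.05, a share of 4.34%, with 386 higher and 541 lower in ACD. In bulk tissue, fewer cells of a type and less RNA per cell cannot be told apart.

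The cervical cord of both groups held a central block of Hox genes, with paralogues 4 to 9 high, 1 to 3 low and 10 to 13 at or near 0. Paralogues 4 to 9 made up 97.7 ± 0.149% of the summed Hox FPKM in ACD libraries and 97.5 ± 0.531% in control libraries (SD, n = 3 each). Paralogue 8 alone, 3 genes, held 37.5 ± 2.35% in ACD and 38.5 ± 3.83% in control libraries. Paralogue 9 held 9.17 ± 1.75% in ACD and 9.004 ± 3.16% in control libraries. Between paralogues 9 and 10 the sum dropped to near 0. For paralogue 9 it was 32.1 ± 4.53 FPKM in ACD and 29.2 ± 10.5 in control libraries. For paralogue 10 it was 0.406 ± 0.147 in ACD and 0.552 ± 0.108 in control libraries. Most of the paralogue 9 sum was Hoxb9, at 27.4 FPKM in ACD and 24.6 in control libraries. The set holds no Hoxb10, so the 2 sums cover unlike clusters. By cluster, Hoxb held 53.1 ± 3.83% of the summed level in ACD and 52.5 ± 2.26% in control libraries, and Hoxd held the least, with 6.70% in ACD and 7.40% in control libraries.

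**Figure D1:**
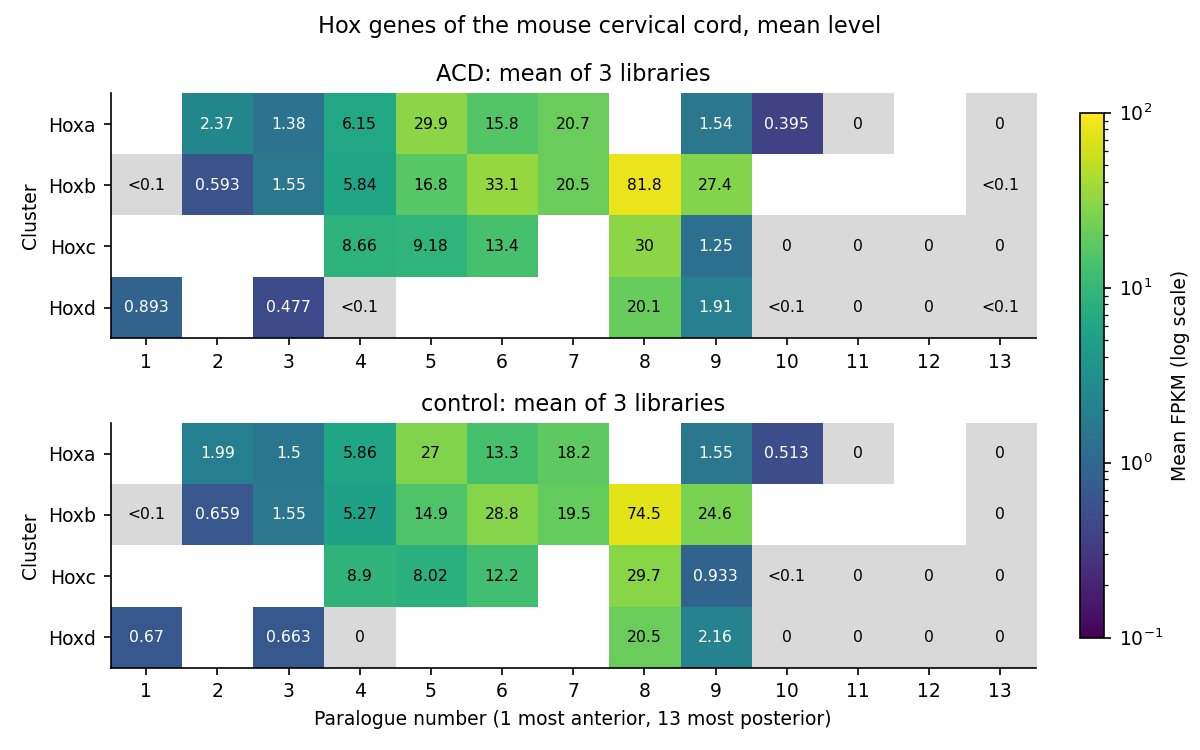
Mean FPKM of each Hox gene in 3 ACD libraries (top) and 3 control libraries (bottom), by cluster (rows) and paralogue number (columns), on a log colour scale, with grey cells under 0.1 FPKM and white where the mouse has no gene or none is shown. Hoxb8 is highest in both groups, at 81.8 FPKM in ACD and 74.5 FPKM in control libraries, and in both the cells of paralogues 10 to 13 are grey apart from Hoxa10.

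Hoxb8 was the highest Hox gene in every library. Hoxb8 is known from mice for a role in the spinal sensory system, and mutant mice groom to excess and have altered responses to heat and pain. Its level was 70.4, 81.3 and 93.6 FPKM in ACD libraries 1 to 3, against 80.5, 69.3 and 73.7 FPKM in control libraries 1 to 3. The groups overlapped, with ACD 3 the highest library and control 2 the lowest. The log2 difference of ACD minus control was 0.13 (SE 0.11), and the 95% interval of the fold change was 0.908 to 1.31. Hoxb8 lies on chromosome 11 at 96281905 to 96285315 and its exons overlap no other annotated gene. Its promoter as RefSeq gives it (GRCm38.p6, chr11:96281655-96281954, plus strand, 250 bases before to 50 after the start) is shown because the gene leads the set. Capitals mark, on either strand, the TATA box motif, the CCAAT box and a core that posterior Hox and Cdx proteins recognise, TTTATG.
Hoxb8 promoter: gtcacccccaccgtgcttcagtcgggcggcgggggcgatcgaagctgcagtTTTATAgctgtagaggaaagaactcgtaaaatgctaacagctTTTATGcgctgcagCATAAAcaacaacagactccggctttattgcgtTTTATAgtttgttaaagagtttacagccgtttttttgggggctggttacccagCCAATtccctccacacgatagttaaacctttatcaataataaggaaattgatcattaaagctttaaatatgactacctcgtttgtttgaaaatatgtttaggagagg

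These motifs, the joint Hox and Pbx motif TGATTNAT, and AGGTCA, the repeated unit of retinoid receptor sites, 5 in all and none holding another, were searched on both strands of all 32851 RefSeq promoters of 300 bases. Promoters were held for 22 of the 39 Hox genes, 24 in all. The TATA box motif, TATAAA, was in 16.7% of Hox promoters and 13.6% of all promoters. CCAAT was in 62.5% of Hox promoters and 37.4% of all. TTTATG was in 20.8% of Hox promoters and 11.9% of all. AGGTCA was in 29.2% of Hox promoters and 16.3% of all, and TGATTNAT was in 8.33% of Hox promoters and 3.22% of all. The Hox promoters had a median of 14.5 CpG dinucleotides, against 7 over all promoters. The count did not order the genes by level: it was 13 at the median of 11 promoters of genes averaging at least 1 FPKM, and 15 at the median of 9 promoters of genes averaging under 0.1 FPKM.

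Hoxb8 is also the textbook target of a microRNA encoded between Hox genes, since miR-196a directs cleavage of its mRNA in mouse embryos. The miR-10 and miR-196 genes sit in the Hox clusters, and their mature sequences, from RefSeq, are shown with the seed, bases 2 to 8, in capitals, to group them. Each pair shares 1 seed and differs at 1 base outside it.
miR-10a-5p: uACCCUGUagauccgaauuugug
miR-10b-5p: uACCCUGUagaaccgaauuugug
miR-196a-5p: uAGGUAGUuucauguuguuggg
miR-196b-5p: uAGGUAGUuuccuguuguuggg
The window of the Hoxb8 transcript most complementary to miR-196a-5p lies in its 3′ UTR, at chr11:96284888-96284909 (GRCm38, plus strand). It has Watson-Crick matches to 21 of 22 bases. The capital letter marks the 1 that is not, a G opposite the U at base 5 of miR-196a-5p, within the seed.
Hoxb8 site: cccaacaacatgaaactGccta
Reads at the precursor genes were few and do not measure the mature miRNAs. Mir10b had 1, 0 and 2 reads in ACD libraries and 6, 7 and 1 in control libraries, and the groups overlapped. Mir10a had 0 to 1 reads in ACD and 0 to 3 in control libraries, Mir196a-1 had 1 read in ACD 1 and none elsewhere, and Mir196a-2 and Mir196b had none in any library.

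A control mean of at least 10 FPKM was seen in 11 Hox genes, all of paralogues 5 to 9. After Hoxb8 came Hoxc8, the gene of the caudal brachial cord, with 38.8, 31.5 and 19.7 FPKM in ACD libraries and 10.4, 45.9 and 32.7 in control libraries. Hoxc8 ranged more than any other of the 11: control 1 was lowest and control 2 highest, so that the ACD libraries lay inside the control range. Hoxd8, the third paralogue of number 8, had 23.3, 20.4 and 16.6 FPKM in ACD and 19.1, 22.0 and 20.2 in control libraries, with overlap. Hoxb9, of the paralogue group known from the thoracic cord, had 31.5, 26.2 and 24.5 FPKM in ACD and 15.3, 31.9 and 26.5 in control libraries. Control 1 was the lowest library for Hoxb9 too.

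The genes of paralogues 5 to 7 formed a plateau below Hoxb8. Hoxa5, needed for phrenic motor neurons and breathing, had 23.0, 30.5 and 36.1 FPKM in ACD libraries and 33.1, 21.9 and 25.9 in control libraries. Hoxb5, its paralogue in the Hoxb cluster, had 14.3, 15.5 and 20.7 FPKM in ACD and 16.2, 13.2 and 15.3 in control libraries. Hoxc5, which acts with Hoxa5 in the phrenic column, had 8.92, 8.83 and 9.80 FPKM in ACD and 8.92, 6.36 and 8.77 in control libraries. In all 3 genes ACD 3 was the highest of the ACD libraries and control 2 the lowest of the control libraries, and the groups overlapped.

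Hoxb6 had 27.4, 31.8 and 40.1 FPKM in ACD libraries and 31.6, 26.1 and 28.5 in control libraries. Hoxa6 had 12.5, 15.9 and 19.0 FPKM in ACD and 16.9, 9.24 and 13.7 in control libraries. Hoxc6, the brachial motor gene, had 15.5, 12.1 and 12.7 FPKM in ACD and 11.3, 12.04 and 13.3 in control libraries. Hoxb6 and Hoxa6 were lowest in control 2 and highest in ACD 3, while Hoxc6 was highest in ACD 1, and all 3 overlapped between the groups. Hoxa7 had 23.6, 19.3 and 19.1 FPKM in ACD and 17.1, 17.7 and 19.7 in control libraries, with 20.4% of its exon bases shared with other genes, most with the antisense gene Hoxaas3. Hoxb7 had 15.6, 21.7 and 24.1 FPKM in ACD and 22.7, 18.5 and 17.3 in control libraries. Both overlapped between the groups, and their highest libraries, ACD 1 for Hoxa7 and ACD 3 for Hoxb7, differed.

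Paralogues 4 marked the anterior shoulder of the block. Hoxc4 had 7.90, 8.60 and 9.49 FPKM in ACD libraries and 9.74, 6.60 and 10.4 in control libraries. Hoxa4 had 5.10, 6.29 and 7.06 FPKM in ACD and 6.82, 5.23 and 5.53 in control libraries. Hoxb4 had 5.32, 5.43 and 6.77 FPKM in ACD and 5.90, 4.87 and 5.06 in control libraries. All 3 overlapped between the groups, and Hoxa4 and Hoxb4 were highest in ACD 3. Hoxd4 stood apart at 0, 1 and 4 reads in ACD libraries and none in control libraries. Its annotated exons overlap those of other genes over 52.3% of their bases, mostly the readthrough gene Gm28230, so reads there may have been counted for neither or for another gene, and its low value is uncertain. Hoxd3 shares 62.8% of its exon bases in the same way, and Hoxb3 52.9%, most with Hoxb3os.

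The genes of paralogues 1 to 3, which in the embryo pattern the hindbrain, were low. Hoxa2, which sets the identity of the second pharyngeal arch and hindbrain segments, had 2.27, 2.31 and 2.53 FPKM in ACD libraries and 2.33, 2.15 and 1.49 in control libraries. Hoxa3 had 1.39, 1.46 and 1.29 FPKM in ACD and 1.86, 1.26 and 1.38 in control libraries. Hoxb3 had 1.32, 1.41 and 1.92 FPKM in ACD and 1.95, 1.49 and 1.22 in control libraries. All 3 overlapped between the groups. Hoxb2, Hoxd1 and Hoxd3 had means of 0.477 to 0.893 FPKM in ACD and 0.659 to 0.670 FPKM in control libraries, and Hoxb1, known from rhombomere 4 of the hindbrain, had 1 read in ACD 2, 1 in control 2 and none elsewhere.

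The posterior edge fell within paralogue 9. Hoxb9 was among the high genes, while Hoxd9 had 2.21, 1.97 and 1.56 FPKM in ACD libraries and 1.162, 2.85 and 2.48 in control libraries. Hoxa9 had 1.81, 1.60 and 1.20 FPKM in ACD and 0.922, 2.03 and 1.71 in control libraries. Hoxc9 in mice separates thoracic from brachial motor neurons. It had 1.30, 1.91 and 0.540 FPKM in ACD and 0.195, 1.40 and 1.21 in control libraries. These 3 genes were lowest in control 1, and lowest among ACD libraries in ACD 3. Next to Hoxd9 lies Hoxd10, which had 1 read in ACD 1 and none in any other library. The promoters of these neighbours from either side of the edge (GRCm38.p6, plus strand, chr2:74697513-74697812 for Hoxd9 and chr2:74691641-74691940 for Hoxd10) hold 20 and 22 CpG dinucleotides. In capitals Hoxd10 has CCAAT and AGGTCA, both on the minus strand, and Hoxd9 has none of the 5 motifs.
Hoxd9 promoter: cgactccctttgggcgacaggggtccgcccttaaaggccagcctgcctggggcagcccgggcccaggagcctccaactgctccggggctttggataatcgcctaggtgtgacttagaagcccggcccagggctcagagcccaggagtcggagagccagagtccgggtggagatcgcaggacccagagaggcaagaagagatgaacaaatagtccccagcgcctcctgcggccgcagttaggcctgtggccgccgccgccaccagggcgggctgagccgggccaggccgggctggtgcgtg
Hoxd10 promoter: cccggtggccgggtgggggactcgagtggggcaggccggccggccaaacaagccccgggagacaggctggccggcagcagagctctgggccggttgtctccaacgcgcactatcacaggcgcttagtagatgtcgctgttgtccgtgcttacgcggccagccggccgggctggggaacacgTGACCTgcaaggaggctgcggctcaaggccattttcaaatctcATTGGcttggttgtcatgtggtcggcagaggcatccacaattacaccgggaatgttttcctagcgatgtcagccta

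Of the 12 genes of paralogues 10 to 13, Hoxa10 was the 1 that averaged at least 0.1 FPKM. Hoxa10 had 29, 28 and 15 reads, or 0.511, 0.423 and 0.251 FPKM, in ACD libraries, and 37, 26 and 25 reads, or 0.669, 0.428 and 0.441 FPKM, in control libraries. Hoxc10, which with its paralogues sets lumbar identity, had none in ACD libraries and 0, 1 and 3 reads in control libraries. Hoxa11, Hoxa13, Hoxc11, Hoxc12, Hoxc13, Hoxd11 and Hoxd12 were at 0 in all 6 libraries. There a limit of 3 reads allows up to 0.172 FPKM for Hoxc12, which has the shortest exons, at the lowest scaling total. That limit covers counting error only. Hoxb13 had 1 read and Hoxd13 had 3 reads, all in ACD 3.

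In order of control level, neighbours mostly could not be told apart. Of the 19 neighbouring pairs among the 20 genes with a control mean of at least 1 FPKM, 4 had control ranges that did not overlap. These breaks lay between Hoxb8 and Hoxc8, between Hoxa7 and Hoxb5, between Hoxc6 and Hoxc4, and between Hoxb4 and Hoxd9. In the plot of values by library the last shows as a drop in control mean, 5.27 ± 0.549 FPKM for Hoxb4 and 2.16 ± 0.886 FPKM for Hoxd9 (SD, n = 3).

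**Figure D2:**
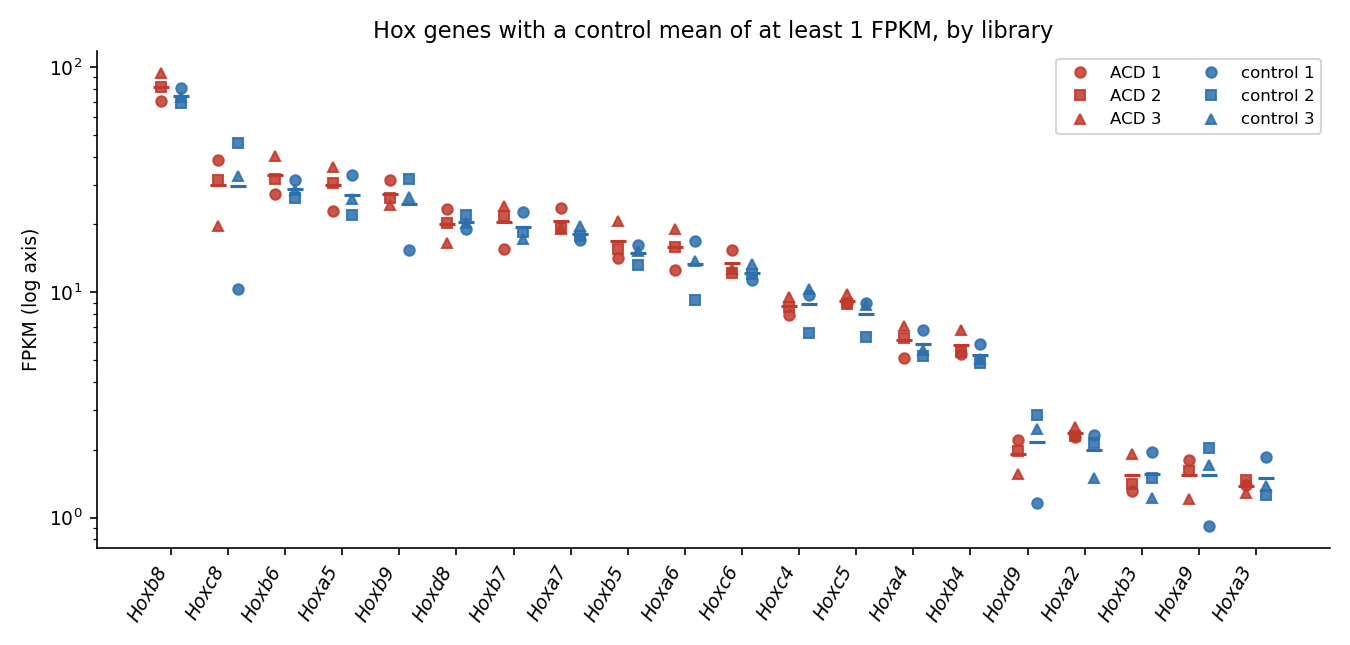
FPKM (log axis) of the 20 Hox genes with a control mean of at least 1 FPKM, ordered by control mean, with 1 point per library, ACD left of control in each pair, and bars for the group means. Hoxb8 stands above all others, and the points of Hoxc8 lie between 10.4 and 45.9 FPKM among the controls.

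The comparison of ACD with control asked whether the Hox code of the cord differs when the nape, skin supplied by cervical nerves, is inflamed. No Hox gene passed the test. Of the 39 members, 26 averaged at least 0.1 FPKM over the 6 libraries and were tested. None of the 26 passed an adjusted p of 0.05 with limma, against 4.34% of all 21369 genes tested, and their adjusted p-values were 0.347 to 0.999. None had an unadjusted p under 0.05, against 22.3% of all genes tested, and none had ACD and control values that did not overlap, against 28.6% of all genes tested. The median log2 difference of the 26 was 0.13, with 18 above 0 and 8 below, and that of all genes was -0.01. After rescaling to TPM the medians were 0.04 for the Hox genes and -0.10 for all genes.

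The 5 smallest p-values belonged to genes of 5 different paralogue numbers in all 4 clusters. For Hoxa7 the log2 difference was 0.18 (SE 0.10), with an adjusted p of 0.347 in limma, and for Hoxc5 it was 0.21 (SE 0.14), with an adjusted p of 0.415. Hoxa2 differed by 0.26 (SE 0.17) with an adjusted p of 0.417, and Hoxb6 by 0.19 (SE 0.14) with an adjusted p of 0.491. Hoxd3 differed by -0.39 (SE 0.29) with an adjusted p of 0.493 in limma, the lowest log2 difference of the 26. Hoxc9 had the highest, 0.55 (SE 0.70).

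The 95% confidence intervals bound the size of these differences. For 20 of the 26 genes the 95% interval of the fold change lay within 2-fold in either direction, and for 13 it lay within 1.5-fold. Of the 11 genes with a control mean of at least 10 FPKM, 10 had an interval within 2-fold. Hoxc8 was the exception, with a log2 difference of 0.21 (SE 0.55) and an interval of 0.466-fold to 2.86-fold. The interval of Hoxc9 was 0.464-fold to 4.61-fold. For these genes 3 mice per group do not exclude a 2-fold change in either direction.

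**Figure D3:**
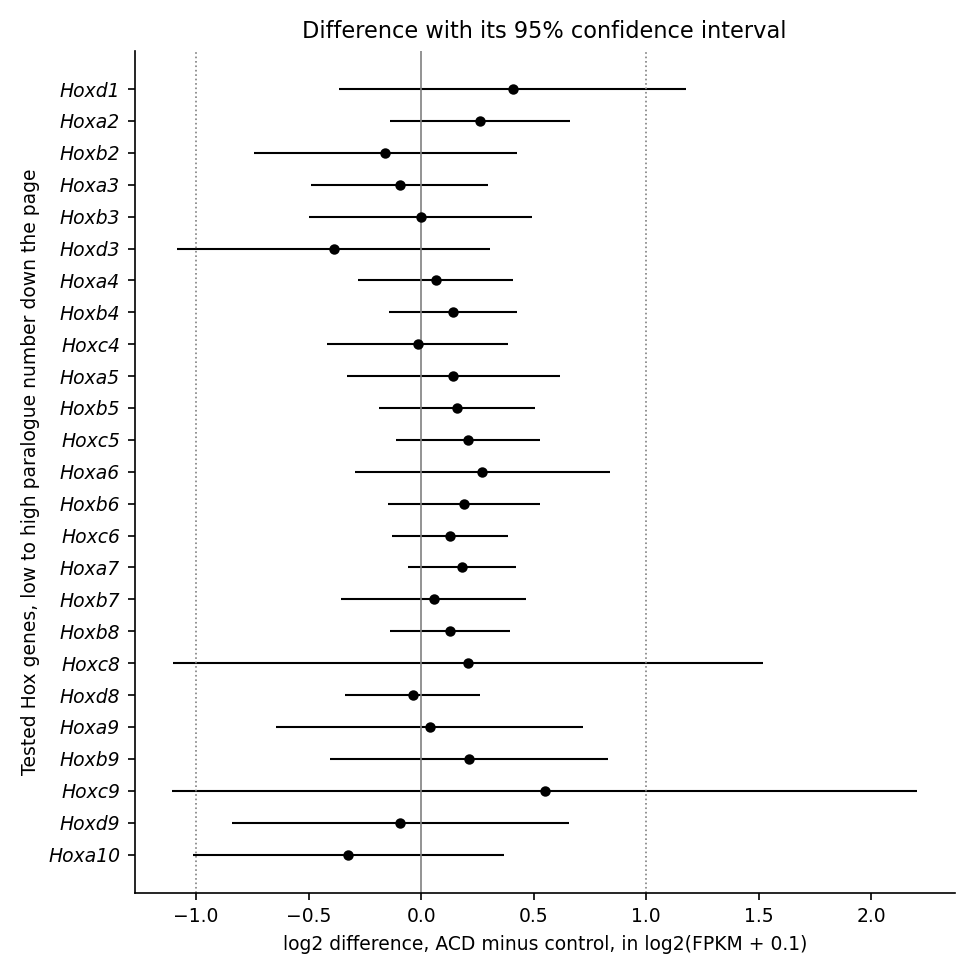
Log2 difference of ACD minus control for 25 of the 26 tested Hox genes, with 95% confidence intervals from limma, from low paralogue numbers at the top to high at the bottom, and dotted lines at a 2-fold change. Every interval includes 0, and those of Hoxc8 and Hoxc9 are the widest.

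The spread among mice of the same group was larger in several Hox genes than in most genes averaging at least 10 FPKM. These genes were not matched to the Hox genes on level or reads. The pooled within-group SD of Hoxc8 on the log2 scale was 0.87, above that of 99.7% of the 4796 genes averaging at least 10 FPKM, whose median was 0.10. Hoxb9 stood above 98.3%, Hoxa6 above 98.0% and Hoxa5 above 97.2% of these genes. Hoxb8, at 0.16, stood above 81.1%, and Hoxa7, at 0.14, above 72.7%.

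Among mice, paralogue 9 and most genes of paralogues 4 to 7 differed in opposite directions. All 4 genes of paralogue 9 were lowest of all 6 libraries in control 1, and all 4 were lowest among ACD libraries in ACD 3. Of the 11 genes of paralogues 4 to 7 that averaged at least 1 FPKM, 9 were highest among ACD libraries in ACD 3 and 8 were highest among control libraries in control 1. Hoxc6 and Hoxa7 were instead lowest of all in control 1 and highest in ACD 1. The ratio of the summed FPKM of paralogues 8 and 9 to that of 4 to 6 was 1.41, 1.22 and 0.974 in ACD libraries and 0.907, 1.66 and 1.26 in control libraries, so the groups overlapped and the control libraries held both extremes. Hoxb8, the highest gene in the sum of paralogues 8 and 9, did not vary as paralogue 9 did. It was highest in ACD 3, at 93.6 FPKM, and among control libraries in control 1, at 80.5 FPKM. The mean paralogue number weighted by FPKM was 6.92, 6.81 and 6.65 in ACD and 6.56, 7.01 and 6.83 in control libraries. Within the Hoxc cluster, the ratio of Hoxc8 to Hoxc6 was 2.51, 2.60 and 1.55 in ACD libraries and 0.913, 3.81 and 2.46 in control libraries. Within a library a ratio does not depend on depth or on scaling to library size.

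**Figure D4:**
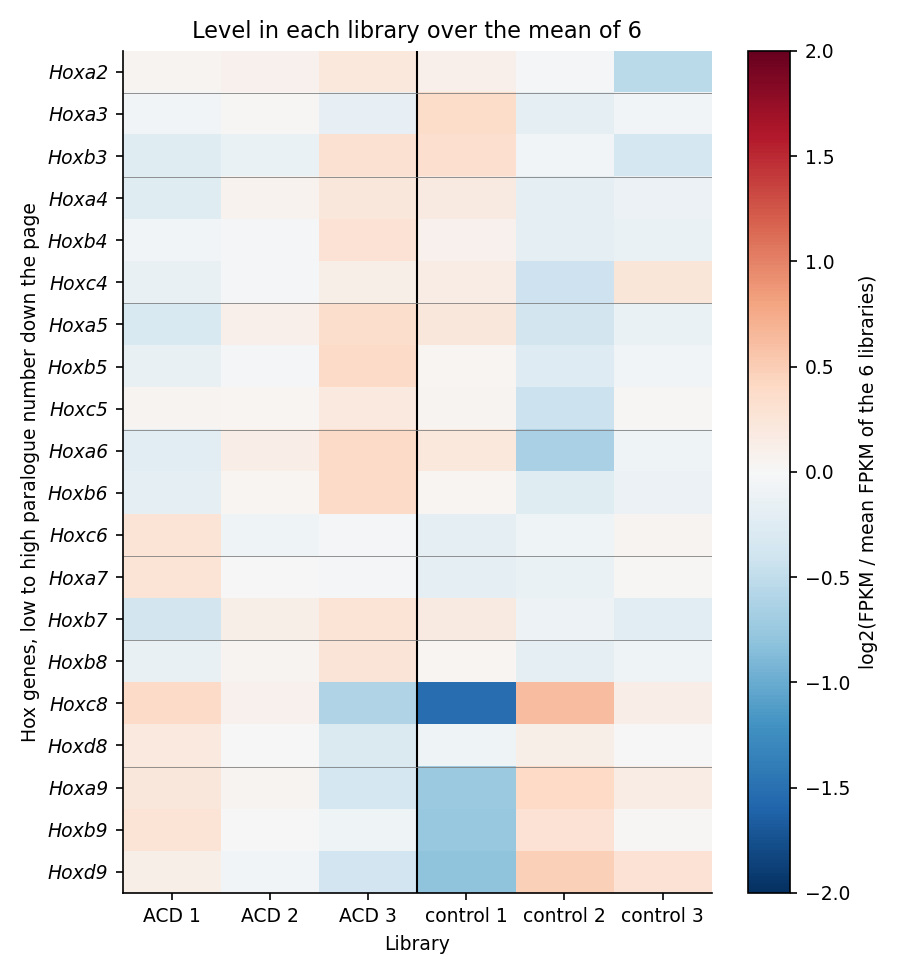
Log2 ratio of each library's FPKM to the mean of the 6 libraries, for the 20 Hox genes with a control mean of at least 1 FPKM, low paralogue numbers at the top, ACD libraries left of control libraries. ACD 3 and control 1 are above the mean for most genes of paralogues 4 and 5 and below it for Hoxc8, Hoxa9, Hoxb9 and Hoxd9, and control 2 is below the mean for all genes shown of paralogues 4 to 6 and above it for those 4 genes.

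Some marker sums were lowest or highest in the same libraries. The summed FPKM of 7 motor and cholinergic neuron genes was 157, 124 and 116 in ACD libraries and 100, 130 and 146 in control libraries, lowest in control 1 and, among ACD libraries, in ACD 3, though control 2, with the highest ratio, did not have the highest sum. Sums of 6 oligodendrocyte genes were lowest in the same libraries, at 8166, 7320 and 6893 FPKM in ACD and 4567, 6947 and 5958 in control libraries, and so were those of 6 microglia genes, at 99.4, 98.2 and 90.4 in ACD and 71.9, 88.7 and 79.4 in control libraries. The summed FPKM of 7 matched primary sensory neuron genes was 1.09, 1.28 and 2.06 in ACD and 1.72, 1.04 and 1.08 in control libraries, highest in the same libraries, with Mrgprd at 0 in all 6. The part of these cells in the Hox values was not tested.

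**Figure D5:**
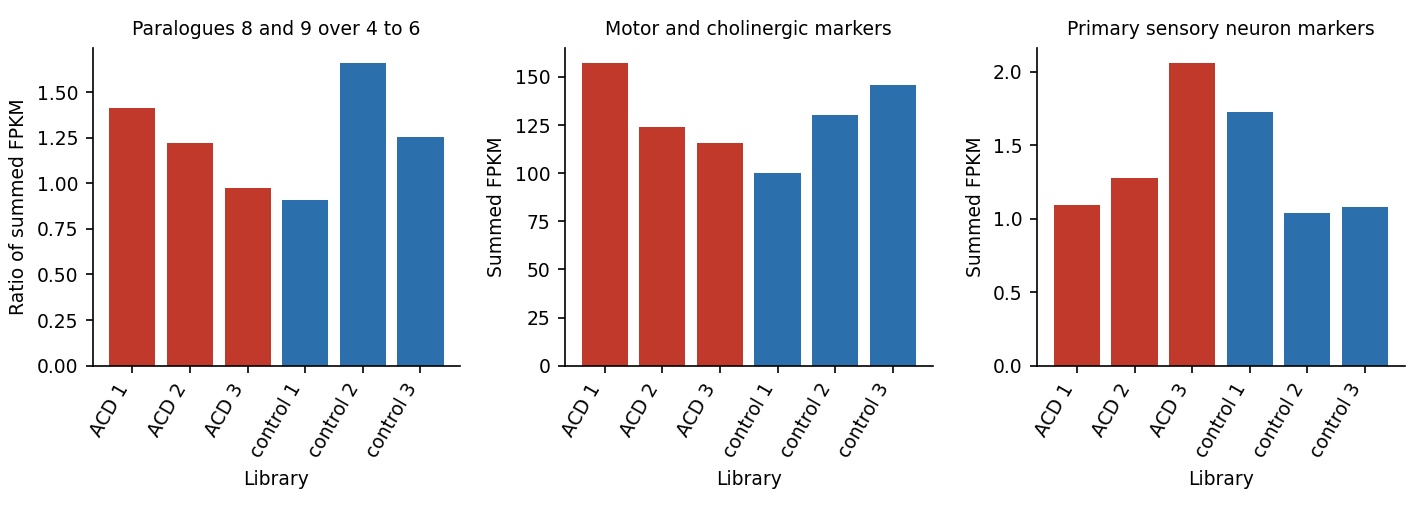
Per library, ACD left (red) and control right (blue): the ratio of the summed FPKM of paralogues 8 and 9 to that of 4 to 6, the summed FPKM of 7 motor and cholinergic neuron genes, and that of 7 primary sensory neuron genes. ACD 3 and control 1 have the lowest ratios, 0.974 and 0.907, and the highest sensory sums, 2.06 and 1.72 FPKM.

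One library mattered most for the caudal genes. Without control 1 the log2 difference of Hoxc8 was -0.42 in place of 0.21, that of Hoxb9 -0.095 in place of 0.21 and that of Hoxc9 -0.20 in place of 0.55. Hoxd9 then differed by -0.47 in place of -0.09, with an unadjusted p of 0.0346 and an adjusted p of 0.222 in limma, the 1 case of an unadjusted p under 0.05 among the 26 genes and the alternatives tried. Hoxa9 differed by -0.28 in place of 0.04. Without control 1, 7 of the 26 genes changed sign, and without ACD 3, 6 did. In each of these 5 genes the sign changed with at least 1 library left out.

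The summed FPKM of all 39 genes was 336, 349 and 372 in ACD libraries and 318, 325 and 329 in control libraries, which do not overlap. On the TPM scale the sums were 1079, 1114 and 1252 in ACD and 1135, 1083 and 1168 in control libraries, which do.

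The proteins that work with Hox factors showed no change that passed the test. Of 9 TALE homeodomain genes, the Pbx, Meis and Pknox cofactors of Hox proteins, all were tested and 0 passed, with a median log2 difference of -0.04. Pbx3 had the smallest p of them, at 5.95 ± 0.213 FPKM in ACD and 6.48 ± 0.0682 in control libraries (log2 difference -0.12, SE 0.07, adjusted p = 0.334 in limma). Of 14 motor column and pool genes, which Hox proteins act on or with, 0 passed. Pou3f1, a marker of motor pools, had the smallest p, at 1.97 ± 0.304 FPKM in ACD and 2.34 ± 0.348 in control libraries (-0.24, SE 0.15, adjusted p = 0.405 in limma). Foxp1, the cofactor of Hox proteins in limb-innervating motor columns, had 1.77 ± 0.0896 FPKM in ACD and 1.82 ± 0.0681 in control libraries.

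Among 21 genes that set up or regionalise Hox expression, 17 were tested and 0 passed. Cdx1, Cdx2, Cdx4 and Fgf8, which start and extend Hox expression in the tail bud of the embryo, were at 0 in all libraries. Gmnn, which encodes geminin, a regulator of replication that binds Hox proteins, had the smallest p, at 3.36 ± 0.168 FPKM in ACD and 2.53 ± 0.183 in control libraries (log2 difference 0.40, SE 0.10, adjusted p = 0.0652 in limma).

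The calls among these lists were all in chromatin regulators that keep Hox genes silent or active. Of 24 Polycomb group genes, 3 fell and 0 rose, and of 10 trithorax group and H3K27 demethylase genes, 2 fell and 0 rose. Mtf2, a Polycomb repressive complex 2 accessory subunit, had 3.53, 3.16 and 3.44 FPKM in ACD libraries and 4.93, 5.43 and 4.54 in control libraries (log2 difference -0.54, SE 0.09, adjusted p = 0.0296 in limma). Pcgf2, or Mel18, a subunit of Polycomb repressive complex 1, had 1.73, 1.77 and 1.67 FPKM in ACD and 2.88, 2.47 and 2.55 in control libraries (-0.58, SE 0.10, adjusted p = 0.0320 in limma). Phc3, another subunit of that complex, had 3.84, 3.71 and 3.46 FPKM in ACD and 5.01, 4.59 and 5.29 in control libraries (-0.42, SE 0.09, adjusted p = 0.0449 in limma).

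The trithorax genes that fell were both MLL methyltransferases, which keep active Hox genes on. Kmt2a, encoding MLL1, had 5.08, 5.36 and 6.05 FPKM in ACD libraries and 9.17, 7.17 and 9.44 in control libraries (log2 difference -0.63, SE 0.12, adjusted p = 0.0394 in limma). Kmt2b, its closest paralogue, had 3.59, 3.36 and 3.71 FPKM in ACD and 5.77, 4.86 and 5.91 in control libraries (-0.62, SE 0.10, adjusted p = 0.0239 in limma). In all 5 genes every ACD library was below every control library, which adds no support, since a test on the same values picked them. Over all genes tested, 28.6% had groups that did not overlap. Set against 4.34% of all genes, 5 of the 74 tested cofactor and regulator genes were called. The medians were -0.08 for the Polycomb genes and -0.01 for the trithorax genes, against -0.01 for all genes. With 1 library left out, 0 to 3 of the 74 genes passed, and with the trend on exon length and GC content removed Mtf2 and Phc3 no longer did (adjusted p = 0.0569 and 0.157 in limma). Genes then passed in both directions, with Ring1 lower and with Dpy30, a subunit of the MLL complexes, and Gmnn higher (log2 differences 0.46 and 0.46, adjusted p = 0.0168 and 0.0270 in limma). Dpy30 also passed as higher without control 2 (adjusted p = 0.0349 in limma).

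Inside the clusters lie 46 other annotated genes, among them 16 of the class misc_RNA, 9 antisense RNAs, 7 miRNAs and 5 long intergenic RNAs. Of the 46, 23 were at 0 in all libraries and 18 were tested. Of the 18, 1 rose and 2 fell, set against calls in 4.34% of all genes tested. These 3 had no exon overlap with a Hox gene. Gm27477, of the class misc_RNA and 143 bases long, lies just downstream of Hotairm1, on chromosome 6 at 52162125 to 52162267. It had 38, 54 and 49 reads in ACD libraries and 22, 25 and 25 in control libraries. It averaged 17.6 ± 1.95 FPKM in ACD and 9.53 ± 0.504 in control libraries (log2 difference 0.87, SE 0.10, adjusted p = 0.00923 in limma). With voom on recovered reads it did not pass (0.80, adjusted p = 0.0744), and with the length and GC trend removed the log2 difference was 1.55. Gm14426, a long intergenic RNA on chromosome 2 at 74754455 to 74755097 between Hoxd3 and Hoxd1, had 1, 3 and 3 reads in ACD libraries and 10, 13 and 13 in control libraries (-2.33, SE 0.32, adjusted p = 0.0156 in limma). Gm15050, antisense in the Hoxa cluster on chromosome 6 at 52172881 to 52174059, had 15, 15 and 8 reads in ACD and 33, 24 and 30 in control libraries (-1.25, SE 0.26, adjusted p = 0.0461 in limma). It did not pass without a filter (adjusted p = 0.0737), with the length and GC trend removed (0.0784) or with any 1 library left out (0.0633 to 0.125). Without control 1, Gm14426 did not pass either (adjusted p = 0.0521 in limma). No ACD library overlapped a control library in these 3 genes, which were picked by a test on the same values. The groups did not overlap in 28.6% of all genes tested.

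The named regulatory RNAs of the clusters did not pass. Hotairm1, which lies next to Hoxa2 and is linked to control of the anterior Hoxa genes, had 6.77 ± 0.438 FPKM in ACD and 6.11 ± 1.01 in control libraries (log2 difference 0.16, SE 0.12). Haglr, divergent from Hoxd1, had 1.86 ± 0.264 FPKM in ACD and 2.08 ± 0.286 in control libraries. Hoxaas2, Hoxaas3, Hoxb3os, Hoxb5os and Hoxd3os1 averaged 0.620 to 2.42 FPKM in ACD and 0.562 to 2.19 FPKM in control libraries, and their adjusted p-values were 0.480 to 0.835 in limma. Gm11536, Gm14424, Gm27861, Gm28230, 5730596B20Rik and Mir615 were tested too and did not pass. Hotair, the Hoxc antisense RNA of posterior tissues, was at 0 in all libraries. The strand setting of the counting is not known, so where an antisense gene overlaps a Hox gene their reads cannot be separated, and 10 of the 39 Hox genes share more than 10% of their exon bases with another gene.

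Sums of marker genes of some other cell types differed between the groups without overlap. Those of cord neurons, motor and cholinergic neurons, oligodendrocytes, endothelium, primary sensory neurons, meninges and fibroblasts, and keratinocytes overlapped. The sum of 5 erythroid genes was 481 to 772 FPKM in ACD and 100 to 389 in control libraries. Of these genes Hba-a2 went the other way, with means of 22.6 FPKM in ACD and 29.8 in control libraries. The sum of 6 skeletal muscle genes was 1.82 to 2.79 in ACD libraries, and 6.02, 25.8 and 4.08 in control libraries 1 to 3. That of 6 astrocyte genes was 917 to 985 in ACD and 706 to 825 in control libraries. Gfap made up much of the astrocyte sum, with means of 576 FPKM in ACD and 413 in control libraries. Slc1a2 went the other way, with means of 167 FPKM in ACD and 174 in control libraries. No erythroid or muscle gene passed the test, and of the astrocyte genes Gfap rose (log2 difference 0.48, SE 0.09, adjusted p = 0.0332 in limma). Gfap did not pass after TPM scaling (adjusted p = 0.0503) or in 5 of the 6 fits with 1 library left out. Of 6 microglia genes, with sums of 90.4 to 99.4 FPKM in ACD and 71.9 to 88.7 in control libraries, Tmem119 rose (0.53, SE 0.10, adjusted p = 0.0394 in limma), and it did not pass without a filter (adjusted p = 0.0641), after TPM scaling (0.0610) or in 5 of the 6 fits with 1 library left out. Of 10 genes of rostral brain regions, 3 were tested and En2, a midbrain and hindbrain gene, fell. It had 0.741 ± 0.0406 FPKM in ACD and 1.45 ± 0.141 in control libraries (-0.88, SE 0.15, adjusted p = 0.0253 in limma). En2 did not pass with the replicate block (adjusted p = 0.0886 in limma) or in 5 of the 6 fits with 1 library left out. The part of these cells in the Hox values was not tested.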

How the data were processed

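Each library's deposited table gave the authors' FPKM per Ensembl gene. The submitters' processing notes name HISAT2 (2.0.5), the counter featureCounts (1.5.0-p3), DESeq2 (1.16.1) and the build mm10, with no role for each. Kit, strand setting and annotation release: not given in the sources used here. GENCODE M21 (GRCm38, the same assembly as mm10) supplied exon lengths and coordinates, and RefSeq supplied sequences. The Hox genes as a subject and the other lists were chosen with earlier results of these data known, while membership follows the symbol alone. Of the members, 1 counts in totals but is not reported here by name. A linear model in limma 3.58.1 under R 4.3.3 (trend and robust, two-sided) was fitted to log2(FPKM + 0.1) for genes averaging at least 0.1 FPKM, with Benjamini-Hochberg adjustment over all 21369 of them and a threshold of 0.05. This scale understates changes of low genes. The fit was tested on simulated data. Levels are mean ± SD, n = 3. Reads recovered from FPKM steps were whole within 0.05 for 96.9% of values above 0, and Hoxd4 was the 1 Hox gene whose reads were not. The naming rule gave every Hox gene at a control mean of at least 1 FPKM by library, the 5 smallest p-values, and from other lists up to 4 calls, or the smallest p. Foxp1 and the caudal genes compared without control 1 were named after their values were seen. Alternatives were the pseudocount, the filter, TPM, voom on recovered reads, a length and GC trend, the replicate block and left-out libraries.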

Additional observations from a re-analysis of the deposited data

How the results depend on the processing

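The count of Hox genes past an adjusted p of 0.05 was 0 with limma under every alternative, namely pseudocounts of 0.01 and 1, no filter, a minimum mean of 1 FPKM, TPM scaling, voom on recovered reads, a length and GC trend removed, the replicate block and libraries left out. At an unadjusted p under 0.05 it was 0 in all of them except without control 1, where it was 1. The calls over all genes moved more: 927 in the reported fit, 556 without a filter, 1714 with voom (423 higher, 1291 lower), 1397 with the length and GC trend removed (908 higher, 489 lower), and 180 to 627 with 1 library left out. The split was 386 higher and 541 lower as reported, 205 and 695 after TPM scaling, and 525 and 463 with a minimum mean of 1 FPKM. The replicate numbers are shared by the groups, but same-numbered libraries did not deviate together (correlations of -0.028, 0.015 and 0.003 across genes), so they were not taken as pairs. With the replicate block 181 genes, 0 Hox genes, 0 of the cofactors and regulators and 2 of the other cluster genes passed. Among the 74 cofactors and regulators, 5 passed as reported, 2 without a filter, 8 with voom, and 0 to 3 with 1 library left out. Among the other cluster genes, 3 passed as reported and 1 to 2 with 1 library left out. Leaving out both ACD 3 and control 1, chosen after seeing the data, left 0 calls over all genes, so the 0 calls there among Hox genes, regulators and cluster genes carry no weight. With the length and GC trend removed, 2 of the 6 regulators that passed were higher. The cause of these shifts was not tested. With 1 library left out, the log2 difference ranged over -0.42 to 0.65 for Hoxc8, -0.095 to 0.43 for Hoxb9, -0.47 to 0.14 for Hoxd9 and -0.20 to 1.01 for Hoxc9. Without both libraries it was -0.15 for Hoxc8 and -0.02 for Hoxb9. Over the 26 tested Hox genes, 0 to 7 changed sign against the reported fit, 3 with TPM scaling, 2 with voom and 7 without control 1. The share of paralogue 8 in controls was 42.7% by reads not divided by length, against 38.5% per length. Counting limits the 13 untested Hox genes, with 0 to 4 recovered reads per library, those of Hoxd4 rounded.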
